A study of Mus musculus with 2 samples.

Results

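Open chromatin was examined at 10 mouse genes that encode classical protein tyrosine phosphatases: Ptpre, Ptprc, Ptprj, Ptpro, Ptprs, Ptpn1, Ptpn2, Ptpn6, Ptpn11 and Ptpn22. They are 10 of 21887 protein-coding genes in the RefSeq table of mm10 (GRCm38.p6). A peak belonged to a gene when its summit lay within 100 kb of an end of that gene and no end of another protein-coding gene was nearer. By this rule 33 of 77060 untreated peaks and 43 of 37725 R848 peaks belonged to the 10 genes. The genes were chosen by name with earlier results known, and Ptpre was selected on its number of peaks found after R848 alone, so that number is given as a description.

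The cells were wild-type mouse bone marrow-derived macrophages (BMDMs) grown with M-CSF at 20 ng/ml, which both groups shared. The untreated group was 1 ATAC-seq library at 0 h, and the R848 group was 1 library from cells that had received R848 at 100 ng/ml for 2 h. R848 (resiquimod) is a synthetic compound that stimulates Toll-like receptor 7. In ATAC-seq a transposase cuts open DNA and leaves sequencing adapters there, and places with many cuts are called as peaks. Whether a site was open in more cells or more open in each cell cannot be told apart in bulk libraries. With 1 library per group there is no replicate check, no test was possible, and no p-value is given. The labels name no strain, sex or age of the mice.

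Tyrosine phosphatases remove phosphate from tyrosine residues and so set how long a signal from a tyrosine kinase lasts. The receptor types (Ptpr genes) cross the plasma membrane, and several of them switch Src family kinases on by removing the inhibitory phosphate at the kinase tail. The non-receptor types (Ptpn genes) work inside the cell on Janus kinases, on growth factor signalling, or at inhibitory receptors of the immune system. In macrophages both kinds act on signals from Fc receptors, integrins, cytokine receptors and Toll-like receptors.

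The windows before the transcription starts are shown first because the members differed in which of their starts held a peak. The RefSeq promoter table matched 9 of the 10 genes (not Ptpn2), with 15 starts, and gives 250 bases before and 50 bases after each start. A peak overlapped 6 of these 15 windows in the R848 list and 4 of 15 in the untreated list. Over all 32851 windows of the table the share was 25.2% in the R848 list and 18.2% in the untreated list. The 250 bases before the start follow, from RefSeq, build GRCm38.p6, written 5′ to 3′ on the strand of the gene. Capitals mark matches to the motifs that were searched.
Ptpre, start at 135537824, chr7:135537574-135537823, + strand: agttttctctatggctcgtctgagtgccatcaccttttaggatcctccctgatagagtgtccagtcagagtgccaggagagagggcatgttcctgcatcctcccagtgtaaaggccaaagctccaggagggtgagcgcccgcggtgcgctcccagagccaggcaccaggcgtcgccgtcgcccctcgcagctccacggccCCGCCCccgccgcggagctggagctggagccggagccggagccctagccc
Ptpre, start at 135593481, chr7:135593231-135593480, + strand: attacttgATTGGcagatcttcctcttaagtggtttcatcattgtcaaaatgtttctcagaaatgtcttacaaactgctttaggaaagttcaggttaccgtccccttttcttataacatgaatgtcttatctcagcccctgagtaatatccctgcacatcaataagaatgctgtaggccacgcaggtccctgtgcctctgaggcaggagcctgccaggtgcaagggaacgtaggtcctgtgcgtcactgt
Ptpre, start at 135605828, chr7:135605578-135605827, + strand: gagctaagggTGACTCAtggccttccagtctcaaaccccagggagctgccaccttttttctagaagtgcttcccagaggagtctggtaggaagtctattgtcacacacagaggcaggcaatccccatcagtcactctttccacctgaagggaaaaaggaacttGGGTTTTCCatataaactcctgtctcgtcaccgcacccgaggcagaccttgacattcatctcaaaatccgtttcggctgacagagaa
Ptprj upstream start, chr2:90580596-90580845, - strand: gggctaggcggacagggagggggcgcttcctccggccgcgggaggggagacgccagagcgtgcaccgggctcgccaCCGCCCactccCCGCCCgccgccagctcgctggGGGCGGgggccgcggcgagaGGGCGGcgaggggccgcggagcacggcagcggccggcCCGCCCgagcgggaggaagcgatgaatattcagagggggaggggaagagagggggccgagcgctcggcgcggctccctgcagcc
Ptprs upstream start, chr17:56476481-56476730, - strand: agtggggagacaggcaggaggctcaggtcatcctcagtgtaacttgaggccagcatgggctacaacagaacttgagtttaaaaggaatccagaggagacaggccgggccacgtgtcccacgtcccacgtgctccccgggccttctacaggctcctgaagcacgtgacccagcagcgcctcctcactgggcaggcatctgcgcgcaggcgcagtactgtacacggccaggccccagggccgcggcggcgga
Ptprs internal start, chr17:56462222-56462471, - strand: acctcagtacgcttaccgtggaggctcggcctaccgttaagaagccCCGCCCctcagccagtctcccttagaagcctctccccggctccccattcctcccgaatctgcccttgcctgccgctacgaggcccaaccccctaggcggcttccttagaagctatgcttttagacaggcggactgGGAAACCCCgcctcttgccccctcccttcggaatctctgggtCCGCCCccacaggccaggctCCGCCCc
Ptpn1 start, chr2:167932077-167932326, + strand: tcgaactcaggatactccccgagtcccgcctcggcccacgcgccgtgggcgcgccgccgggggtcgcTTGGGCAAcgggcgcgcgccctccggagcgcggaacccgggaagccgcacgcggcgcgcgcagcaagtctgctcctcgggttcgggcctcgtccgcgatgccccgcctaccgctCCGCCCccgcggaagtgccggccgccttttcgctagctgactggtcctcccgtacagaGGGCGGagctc
Ptpn6 start, chr6:124738710-124738959, - strand: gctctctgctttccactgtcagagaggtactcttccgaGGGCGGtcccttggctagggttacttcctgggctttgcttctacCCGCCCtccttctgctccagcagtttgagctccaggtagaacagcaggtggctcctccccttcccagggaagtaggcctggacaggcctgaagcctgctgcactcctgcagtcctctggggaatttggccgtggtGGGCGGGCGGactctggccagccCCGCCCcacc
Ptpn11 start, chr5:121191398-121191647, - strand: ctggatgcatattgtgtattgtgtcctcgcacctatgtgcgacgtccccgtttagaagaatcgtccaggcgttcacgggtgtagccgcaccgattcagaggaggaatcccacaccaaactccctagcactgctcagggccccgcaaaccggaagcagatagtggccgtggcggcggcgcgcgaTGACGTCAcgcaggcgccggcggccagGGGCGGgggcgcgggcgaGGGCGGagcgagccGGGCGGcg

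At Ptpre the window of the first start (135537824) held an R848 peak of 12 tags and no untreated peak, and the windows of the second and the third start held no peak in either list. The window of the upstream start of Ptprj held an untreated peak of 5 tags and no R848 peak. An R848 peak of 7 tags, which the rule gave to the predicted gene Gm46752, lay 129 bp from that untreated peak. Its summit was 137 bp after the start, outside the window. At Ptprs the upstream start held an R848 peak of 9 tags alone, while the internal start held a peak in both lists, of 22 tags after R848 and 8 tags in untreated cells. The start of Ptpn1 held 25 tags after R848 and 7 in untreated cells. The start of Ptpn6 held 8 and 7 tags, and that of Ptpn11 held 6 tags after R848 and no untreated peak. A tag here is a read extended over its fragment, and the number is the height of the stack at the summit, recovered from the deposited values. The windows of Ptprc and Ptpn22 held no peak in either list. The single start of Ptpro was also without a peak, and the nearest summits were more than 18 kb away in both lists.

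The motifs were searched in both strands of the full windows: GGNNTTTCC or GGGANTTCC for NF-kB, TGANTCA for AP-1, TGACGTCA for the cAMP response element (CRE), GAGGAAGT for PU.1, GAAANNGAA for interferon-stimulated response elements, TTGCNNAA for C/EBP, GGGCGG for GC boxes, and CCAAT. Matches of 1 motif can overlap, as a pair of GC boxes does at Ptpn6. NF-kB letters stood in 2 of the 15 windows, at the internal start of Ptprs (from -69 to -61, counted back from the start) and at the third start of Ptpre (from -87 to -79), against 7.09% of all windows. The first of these had a peak in both lists and the second had none, and 2 windows are too few to relate a match to a peak. AP-1 letters stood in 1 window, that of the third start of Ptpre (from -240 to -234), against 7.81% of all windows. CRE letters stood at Ptpn11 (from -67 to -60) and, after the printed bases, at the upstream start of Ptprs, against 1.79%. C/EBP letters stood only at Ptpn1 among the 15 windows (10.8% of all), and PU.1 (3.2% of all) and interferon-stimulated response element letters (8.56% of all) stood in none. GC boxes stood in 6 windows (35.7% of all) and CCAAT in 2, both of Ptpre (37.4% of all). The first Ptpre window had 20 CpG pairs and 65.7% G and C, against 5 pairs and 47% at the second start and 8 pairs and 52.7% at the third. The median of all windows was 7 pairs and 52.7%. A match is a run of letters and not a measured binding site.

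Both lists were shallow. The recovered genome-wide background was 0.968 tags without R848 and 1.36 tags with it, or 1.4 times as high. At that background the lowest called summits held 4 tags (untreated) and 5 tags (R848), and the median peaks 7 and 8. The untreated list was the longer, with 63.2% of its peaks at a −log10 q below 2, against 64.5% of the R848 list. Of 10 macrophage markers, 9 had a peak in both lists that overlapped, and Fcgr1 had peaks in each list but none that overlapped. Of 16 markers of other cells none had an overlapping pair and 6 had no peak at all, although Cdh5, an endothelial adhesion gene, had 7 R848-only and 4 untreated-only peaks. No share over all genes was counted for overlapping pairs. The length of genome nearest to a macrophage marker ran from 3.12 kb (Cd68) to 152 kb (Adgre1). For the markers of other cells it ran from 4.79 kb (Elane) to 166 kb (Col1a2). The part of other cells in the results below was not tested.

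An R848-only peak is an R848 peak that no untreated peak overlaps by 1 bp or more, and an untreated-only peak is the reverse. At the 10 genes 32 peaks were R848-only and 21 untreated-only, and 11 R848 peaks overlapped an untreated peak. R848-only peaks made up 74.4% of the 43 R848 peaks (95% Wilson interval 59.8 to 85.1, counting error only), against 66.9% of the R848 peaks of all protein-coding genes. Untreated-only peaks made up 63.6% of the 33 untreated peaks (46.6 to 77.8), against 79.8% over all genes. Without Ptpre the R848-only share was 67.7% of 31 peaks (50.1 to 81.4), close to the share over all genes. Every one of the 10 genes had an R848-only peak, where 47.2% of all genes did, and 7 of 10 had an untreated-only peak, where 56.9% of all genes did. The choice of genes used these counts, so nothing is read from the difference.

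R848-only peaks outnumbered untreated-only peaks at 4 genes (Ptpre, Ptprs, Ptpn6 and Ptpn22), the reverse held at 4 (Ptprc, Ptprj, Ptpro and Ptpn2), and the numbers were equal at Ptpn1 and Ptpn11. This split changed with the lengths of the lists and with the assignment. With lists of equal length R848-only peaks were the more numerous at 7 genes and untreated-only peaks at Ptpro alone, and Ptprc then had 4 R848-only and 2 untreated-only peaks. With the gene that holds the summit the split was 6 to 3. No such split was counted over all genes, where untreated-only peaks were 1.97 times as many as R848-only peaks. The median member had 2 peaks of each kind, and the median of all genes was 0 R848-only and 1 untreated-only. Genes differ in how much genome lies nearest to them, from 20.1 kb for Ptpn6 to 262 kb for Ptprc. Per 100 kb of that length the 10 genes had 2.49 R848-only and 1.63 untreated-only peaks. Over all genes the figures were 1.14 and 2.25. Without Ptpre they were 1.86 and 1.77.

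**Figure D1:**
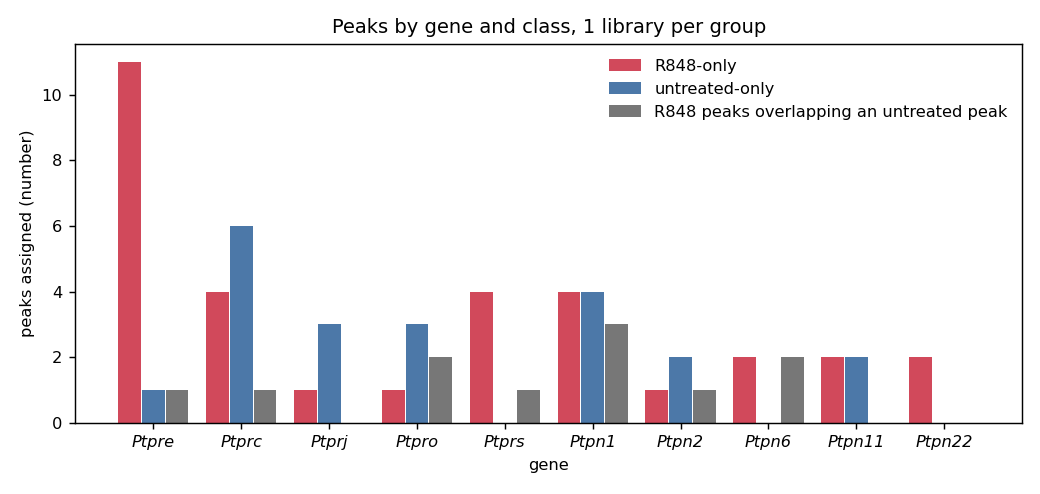
Number of peaks assigned to each phosphatase gene (y axis) in the class R848-only (red), untreated-only (blue) and R848 peaks that overlap an untreated peak (grey), from 1 library per group. Ptpre stands at 11 R848-only peaks beside 1 untreated-only peak, and no other member has more than 4 R848-only peaks.

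The R848-only peaks were mostly weak. Their summits held 5 to 15 tags with a median of 8, and 14 of 32 had a −log10 q of at least 2. Over all genes the median R848-only peak held 7 tags and 26.2% reached that q. The 21 untreated-only peaks held 4 to 10 tags with a median of 5, and 8 of them reached that q, against a median of 7 tags and 31.1% over all genes. The R848 peaks with an untreated counterpart held 5 to 28 tags with a median of 10, against 12 over all genes. Of the 32 R848-only peaks, 23 lay inside the gene, and 28 were more than 5 kb from the nearest untreated peak of any gene. One, at Ptpn1, lay 281 bp from an untreated-only peak of the same gene. At 31 of the 76 peaks the end of a non-coding gene was nearer than that of the phosphatase gene, 13 of them at Ptpre. Shares over all genes were not counted for place, for the distance to the other list or for non-coding ends. These counts are therefore not read as traits of the phosphatase genes.

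**Figure D2:**
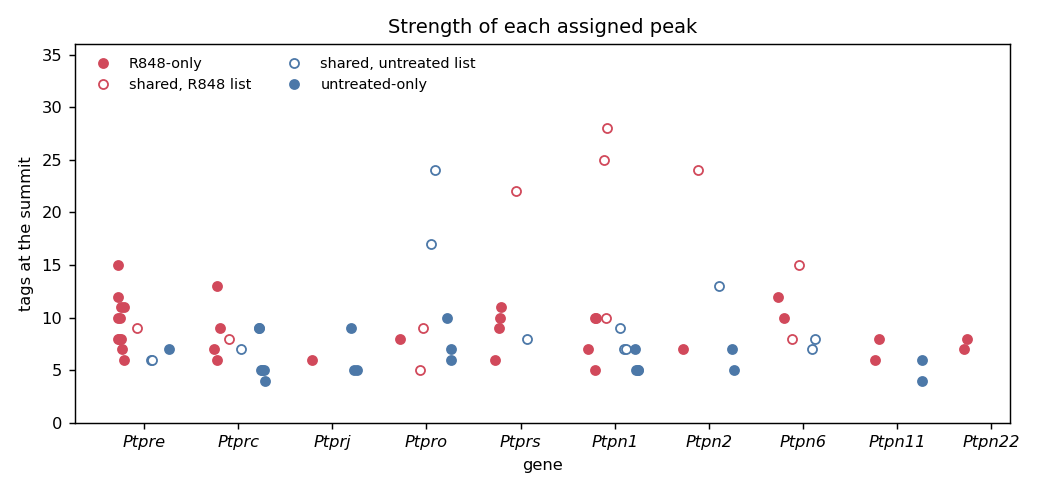
Tags at the summit (y axis) of each of the 76 peaks, by gene, with filled points for peaks in 1 list only and open points for overlapping peaks, red for the R848 list and blue for the untreated list; points are spread sideways at random. The points above 15 tags are all open, at Ptpro for the untreated list and at Ptprs, Ptpn1 and Ptpn2 for the R848 list.

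Ptpre (gene ID 19267, chr7:135537824-135686294, + strand) encodes protein tyrosine phosphatase epsilon, which exists as a membrane receptor and as a cytosolic form made from alternative promoters and acts on Src family kinases and potassium channels. It had 12 R848 peaks, 11 of them R848-only, and 3 untreated peaks, 1 of them untreated-only. When a peak counted for every gene with an end within 50 kb, Ptpre had 10 R848-only and 6 untreated-only peaks. Of the 21887 genes 10, Ptpre included, had at least as many R848-only peaks (0.0457%). Ptpre had 155 kb of assigned genome, or 7.11 R848-only and 0.646 untreated-only peaks per 100 kb. Of 2228 genes with an assigned length within 20% of this, 3 including Ptpre had at least 11 R848-only peaks, and the median such gene had 1 R848-only and 3 untreated-only peaks, a comparison added after the data were seen.

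The peaks ran along the gene from its first start to its 3′ part. The R848-only peak over the first start (chr7:135537448-135538127) had its summit 59 bp before the start, a fold over background of 5.37 and 12 tags, and the nearest untreated peak was 38958 bp away. Between the first and the second start lay the single site present in both lists (chr7:135580846-135581428), with 9 tags after R848. The untreated list held 2 peaks of 6 tags each under it. An R848-only peak of 8 tags (chr7:135600252-135600502) lay between the second and the third start, and R848-only peaks of 6 tags (chr7:135624947-135625146) and 7 tags (chr7:135627531-135627730) followed. The last 2 of these are close to the lowest summits that the R848 list holds.

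The strongest R848-only peak of Ptpre lay inside the gene, 106937 bp from its first start (chr7:135644510-135644940), with a fold of 6.11 and 15 tags. Of the R848 list 11.2% of peaks had at least that fold. The untreated-only peak (chr7:135650059-135650258, 7 tags) lay 5118 bp beyond it. The last 6 R848-only peaks stood within 15893 bp, with summits from 135655270 to 135671163, and held 8, 11, 8, 11, 10 and 10 tags in order along the gene. No untreated summit fell in that stretch. Of 26035 R848-only peaks genome-wide, 7 (0.0269%) began a stretch of 20 kb with as many, a measure chosen after the peaks were seen. The non-coding gene 5830432E09Rik, which lies within Ptpre, had an end nearer than any end of Ptpre for 8 of the R848-only peaks, and the end of Mir1962, a microRNA gene, was nearer for 1 more. Where only peaks with a −log10 q from 5 upward were kept in each list, the count of R848-only peaks at Ptpre was 2, and with gene ends within 20 kb it was 4.

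**Figure D3:**
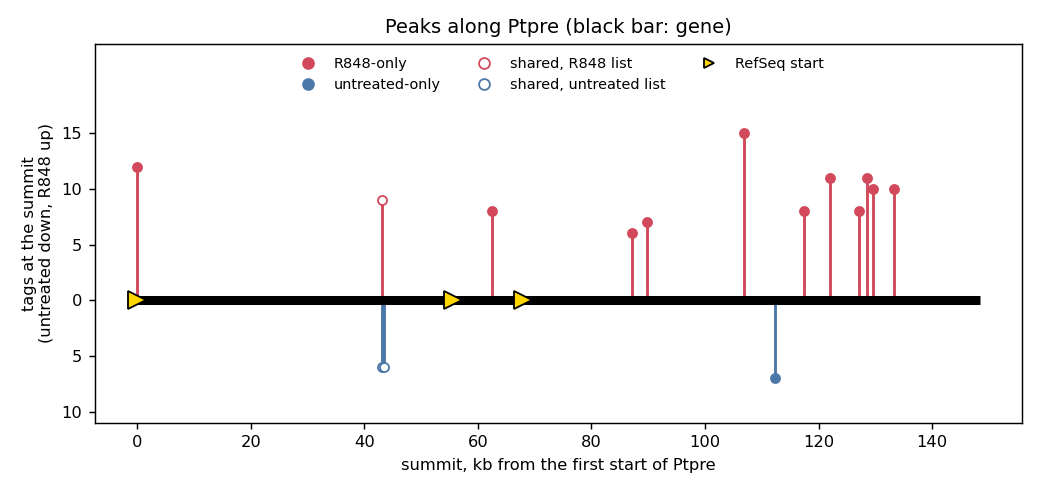
Summits assigned to Ptpre by distance from its first start in kb (x axis), with tags at the summit upward for the R848 list and downward for the untreated list; filled points are peaks in 1 list only, open points overlapping peaks, the black bar is the gene and arrowheads are RefSeq starts. The R848-only peaks include 12 tags at the first start, 15 tags 106937 bp from it and 6 peaks of 8 to 11 tags in the 3′ part.

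Ptprc (gene ID 19264, chr1:138062859-138175756, − strand) encodes CD45, the abundant leukocyte receptor phosphatase that activates Src family kinases. Its peaks were R848-only in 4 cases and untreated-only in 6, and 1 site was in both lists. The strongest R848-only peak lay inside the gene (chr1:138136416-138136700), 38619 bp after the nearer of its starts, with a fold of 5.93 and 13 tags. The untreated-only peaks held 4 to 9 tags, and 5 of them lay beyond the 3′ end of the gene. The one farthest out, at 97280 bp and 4 tags, stood 876 bp from an end of the microRNA gene Mir181a-1. The shared site (chr1:138192043-138192302) lay upstream of the gene and held 8 tags after R848 and 7 in untreated cells.

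Ptprj (gene ID 19271, chr2:90429756-90580694, − strand) encodes CD148, a receptor phosphatase that shares the role of CD45 at Src family kinases in macrophages. By the rule it had 1 R848-only peak of 6 tags (chr2:90470164-90470363) and 3 untreated-only peaks of 5 to 9 tags. One of these (chr2:90580613-90580887, 5 tags) overlapped the window of its upstream start, with its summit at -121 bp from that start, and the strongest (chr2:90418465-90418936, fold 5.08) lay beyond its 3′ end. The count for Ptprj turned on the predicted gene Gm46752 (chr2:90580527-90584989), which overlaps its start. Another 5 R848-only and 2 untreated-only peaks lay inside Ptprj but nearest to an end of Gm46752. The strongest of these 5 (chr2:90542677-90543306) had a fold of 6.98 and 17 tags, more than any R848-only peak that the rule gave to the 10 genes, and another of 7 tags (chr2:90580284-90580483) lay within 1 kb of the start. When peaks went to the gene that holds their summit, Ptprj had 6 R848-only and 3 untreated-only peaks.

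Ptpro (gene ID 19277, chr6:137252299-137464634, + strand) encodes GLEPP1, a receptor phosphatase best known from kidney podocytes. Both of its shared sites had fewer tags in the R848 list than in the untreated list. The site 2735 bp beyond its 3′ end (chr6:137467098-137467452) held 24 tags in untreated cells and 9 after R848. Its fold of 12.7 was reached by 0.371% of the untreated list, and its fold of 4.24 after R848 by 30.4% of the R848 list. The ratio of R848 to untreated tags was 0.375, with an exact 95% interval of 0.153 to 0.836 for counting error. The other site, upstream of the gene (chr6:137233505-137233804), held 17 tags in untreated cells and 5 after R848, a ratio of 0.294 (0.0848 to 0.831). Its peaks overlapped by only 134 bp and their summits were 290 bp apart, so this ratio compares different positions. With an overlap of 50% of the shorter peak required, these peaks no longer counted as shared. Both ratio intervals of Ptpro lay below 1. The recovered genome-wide background was higher in the R848 library. At the upstream site, however, the local background was 2.14 tags in the untreated list and 1.36 in the R848 list. Ptpro also had 1 R848-only peak (8 tags) and 3 untreated-only peaks (6 to 10 tags).

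Ptprs (gene ID 19280, chr17:56412426-56476561, − strand) encodes PTP sigma, a receptor phosphatase that binds proteoglycans. It had 4 R848-only peaks, no untreated-only peak and 1 site in both lists. The shared site (chr17:56462171-56462608 in the R848 list) overlapped the window of the internal start. It held 22 tags after R848 and 8 in untreated cells, a ratio of 2.75 (1.18 to 7.14). The local background there was also higher in the R848 list, at 2.26 tags against 0.968. The folds over background were 7.06 after R848 and 4.57 in untreated cells. R848-only peaks lay over the upstream start (chr17:56476410-56476619, fold 3.12, 9 tags), 1845 bp outside the gene (chr17:56478284-56478634, fold 3.99, 10 tags), and 3489 bp into it (chr17:56472824-56473104, fold 3.87, 11 tags). The remaining one held 6 tags and lay 390 bp from an end of the microRNA gene Mir6977.

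Ptpn1 (gene ID 19246, chr2:167930750-167979385, + strand) encodes PTP1B, which sits on the endoplasmic reticulum and acts on the insulin receptor and on the kinases JAK2 and TYK2. It had 4 R848-only, 4 untreated-only and 3 shared sites. The shared site over its start (chr2:167931970-167932508) held 25 tags after R848 and 7 in untreated cells, a ratio of 3.57 (1.5 to 9.78). A second shared site 5549 bp before the gene (chr2:167924928-167925496) held 28 and 9 tags, a ratio of 3.11 (1.43 to 7.49). Their folds of 8.97 and 8.9 were each reached by under 4% of the R848 list (3.56% and 3.73%), and the same sites had folds of 4.06 and 4.59 in the untreated list. The local background at these sites was 1.9 and 2.26 tags after R848, against 0.968 and 1.18 in untreated cells. The third shared site, 53656 bp away, held 10 and 7 tags. The R848-only peaks held 5 to 10 tags, among them the weakest R848-only peak of the 10 genes, 674 bp from the 3′ end (chr2:167978615-167978814, 5 tags), and the strongest lay upstream (chr2:167884868-167885109, fold 4.66). The untreated-only peaks held 5 to 7 tags.

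Ptpn2 (gene ID 19255, chr18:67665501-67724632) encodes TC-PTP, which acts on the kinase JAK1. A site at 1 end of the gene (chr18:67724080-67724876) was present in both lists, with 24 tags after R848 and 13 in untreated cells. The ratio was 1.85 (0.903 to 3.95), an interval that includes 1. Its fold was high within each list, at 7.44 after R848 (reached by 6.48% of that list) and 6.73 in untreated cells (3.02%). Ptpn2 also had 1 R848-only peak of 7 tags and untreated-only peaks of 5 and 7 tags. It was the only member whose shared site stayed in both lists at a −log10 q of at least 5.

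Ptpn6 (gene ID 15170, chr6:124720707-124738709, − strand) encodes SHP-1, which is recruited by inhibitory receptors of leukocytes. It had 2 R848-only peaks, no untreated-only peak and 2 sites in both lists. The site over its start (chr6:124738525-124738724) held 8 tags after R848 and 7 in untreated cells, over local backgrounds of 2.28 and 0.968 tags. Its fold was 2.74 after R848, which 92% of the R848 list reached, and 4.06 in untreated cells. The R848 peak there had a −log10 q of 0.585. The site 8525 bp inside (chr6:124729872-124730443) held 15 and 8 tags, a ratio of 1.88 (0.746 to 5.11). The R848-only peaks (chr6:124733050-124733277, 12 tags, and chr6:124723667-124724012, 10 tags) also lay inside the gene. Ptpn6 had the smallest assigned length of the 10 genes and 9.94 R848-only peaks per 100 kb, which rests on 2 peaks.

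Ptpn11 (gene ID 19247, chr5:121130533-121191397, − strand) encodes SHP-2, which promotes RAS signalling downstream of many receptors. It had R848-only peaks of 6 tags over its start (chr5:121191225-121191424) and 8 tags upstream (chr5:121196841-121197040), and untreated-only peaks of 4 and 6 tags. Ptpn22 (gene ID 19260, chr3:103856575-103912252, + strand) encodes the phosphatase PEP, a partner of the kinase CSK. It had R848-only peaks of 7 and 8 tags inside the gene (the second at chr3:103907630-103907901) and no untreated peak. None of the peaks of Ptpn11 and Ptpn22 reached a −log10 q of 2 or had a counterpart in the other list.

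Across the members, 12 pairs of overlapping peaks were compared by their tags, 2 of which shared the same R848 peak of Ptpre. The R848 summit was at least 2 times the untreated one in 3 pairs, against 30.1% of 9720 pairs at all genes, and below it in 2 pairs, against 22.8%. The median ratio was 1.5 in both sets. The 3 pairs were those at the starts of Ptpn1 and Ptprs and before Ptpn1, and the 2 pairs were both of Ptpro. The intervals of the Ptprs pair and of the pair before Ptpn1 included that median ratio, and the interval of the pair at the Ptpn1 start began at it. The other 7 intervals included 1, so no difference in raw tags could be told in either direction there at this depth. The genome-wide background was 1.4 times as high in the R848 library, so a ratio of 1 need not stand for no change at any of the pairs.

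**Figure D4:**
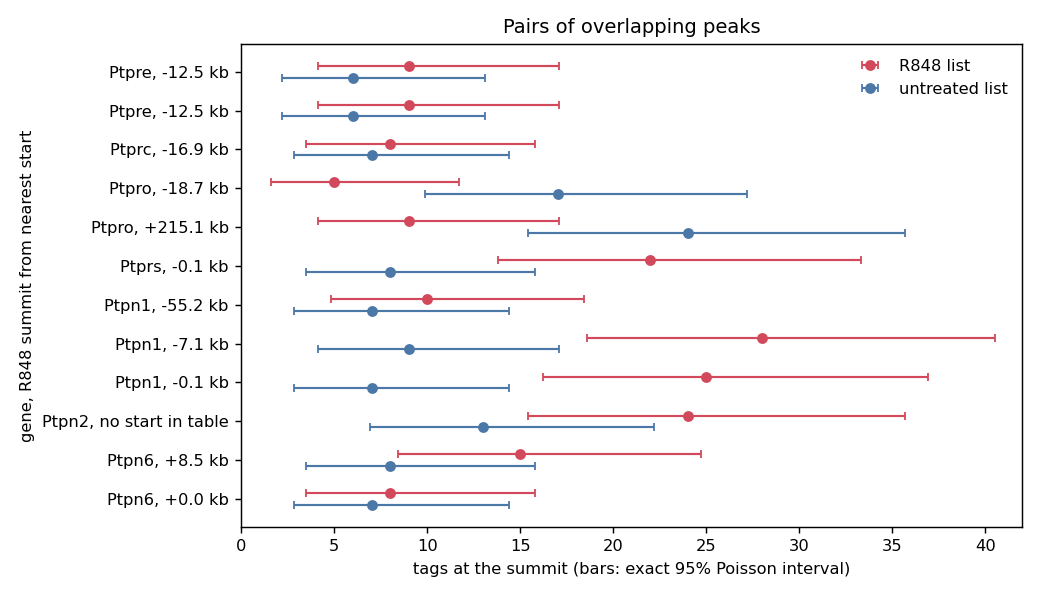
Tags at the summit (x axis) for the 12 pairs of overlapping peaks, R848 in red and untreated in blue, with exact 95% Poisson intervals as bars; rows give the gene and the distance of the R848 summit from its nearest RefSeq start. The Ptpn1 pairs at its start and 7 kb before it have 25 and 28 tags after R848 beside 7 and 9, and the Ptpro pairs run the other way with 5 and 9 beside 17 and 24.

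Among the 27 other classical tyrosine phosphatase genes, 21 had an R848-only peak and 23 an untreated-only peak, and 11 had a site in both lists. The shares over all genes were 47.2% with an R848-only peak and 56.9% with an untreated-only peak, and none is given for sites in both lists. These counts were not adjusted for assigned length, which ran from 22 kb (Ptprn) to 400 kb (Ptprd and Ptprt). Nothing is therefore read from the difference. Untreated-only peaks outnumbered R848-only peaks at 18 of the 27 and the reverse held at 7, a split that was not counted over all genes. The most R848-only peaks stood at Ptprn2 with 7, then Ptprm and Ptpn14 with 5 each, and none of the 27 reached the 11 of Ptpre. The most untreated-only peaks stood at Ptprm with 12, Ptprt with 7 and Ptprz1 with 6. The median of these genes was 1 R848-only and 3 untreated-only peaks.

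Kinases, docking receptors and adaptors that these phosphatases act on or bind formed a list of 25 genes. An R848-only peak lay at 19 of them, an untreated-only peak at 18 and a site in both lists at 19. Over all genes 47.2% had an R848-only peak and 56.9% an untreated-only peak. No share over all genes is given for sites in both lists. Assigned length, for which the counts were not adjusted, ran from 3.23 kb (Dok1) to 317 kb (Fyn). Syk, the kinase that Fc receptors and lectins activate, had 8 R848-only and 7 untreated-only peaks. The Src family kinase gene Fyn had 6 and 1, and 5 R848-only peaks each stood at Sirpa and Lilrb4a, beside 1 and 0 untreated-only peaks. Sirpa and Lilrb4a encode inhibitory receptors. Gab2, an adaptor that binds SHP-2, had 2 R848-only and 14 untreated-only peaks. Pag1 had 4 and 5. The median of the list was 1 R848-only and 2 untreated-only peaks, against 0 and 1 over all genes.

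Near the 100 kb limit of the rule, the farthest peaks inside it were the Ptprc peak at 97280 bp and an R848-only peak of Ptpn1 at 97067 bp with 10 tags. Just outside it were R848-only peaks of 6 tags at 113607 bp and 11 tags at 115566 bp from Ptpn1, and an untreated-only peak of 4 tags at 131716 bp from Ptprc.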

How the data were processed

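ATAC-seq peak lists of 1 untreated and 1 R848 library were used, grouped by the treatment label. Per the labels' protocols, libraries were amplified for 15 PCR cycles. Per the submitters' processing notes, the tools were bcl2fastq 2.19, Bowtie2 2.2.6 and MACS2 2.2.7.1 on mm10. Read totals, filters, duplicate handling and any shift of insertion sites are not given in the sources used here, and the lists are separate per library. The fold over background, the −log10 p and the −log10 q of each summit are the authors' deposited values, each set within 1 library. The lowest −log10 p was 2.01 in both lists. The deposited score is 10 times the −log10 p in 99.9% and 99.8% of peaks and was not used.

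Pileup and background were solved from the deposited fold, taken as (pileup + 1)/(background + 1), and the Poisson tail of the deposited p, to within 0.1% in 99.92% of untreated and 99.88% of R848 peaks. Peaks were matched by 1 bp of overlap, and summits went to the nearest protein-coding RefSeq gene end within 100 kb. The length assigned to a gene is the genome within that reach. Tag intervals are exact Poisson intervals, ratio intervals are Clopper-Pearson intervals on the tags of both lists, and shares have Wilson intervals, all 95% and for counting error only; PCR copies are not independent molecules. The code was tested on simulated peaks and run with scipy 1.17.1, numpy 2.4.6, matplotlib 3.10.9 and pandas 2.3.3 under Python 3.11.15. Peaks named are those within 1 kb of a gene end, the strongest of each class and all of Ptpre, with a few others chosen after their values were seen. The members and lists were chosen with earlier results of these data known. Alternatives were stricter q, lists of equal length, other overlaps and other assignments. A comparison of protein sequences and windows around summits was not run.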

Additional observations from a re-analysis of the deposited data

How the results depend on the processing

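No paired analysis was possible because each group has 1 library, and for the same reason no library could be left out. The counts for the 10 genes (32 R848-only, 21 untreated-only, 11 R848 peaks in both lists, and 11 R848-only at Ptpre) depended on the settings as follows. Keeping peaks with a −log10 q from 2 upward in each list gave 15, 11, 7 and 7, and from 5 upward gave 7, 2, 1 and 2. At 2, 14 of the 15 R848-only and 8 of the 11 untreated-only peaks were in 1 list alone before. The 1 other R848-only peak was at Ptpre, so 6 of its 7 were R848-only before. At 5, only 3 of the 7 R848-only and 0 of the 2 untreated-only peaks were in 1 list alone before. At both limits the others were shared sites whose counterpart had been filtered out. With gene ends within 20 kb the counts were 16 R848-only, 9 untreated-only and 4 at Ptpre. With lists of equal length the untreated-only count was 8. With the gene that holds the summit, the untreated-only count was 11 and the count in both lists 6, and with every gene end within 50 kb the count in both lists was 17 and Ptpre had 6 untreated-only peaks. With the nearest transcription start within 100 kb, added after the data were seen and without Ptpn2, Ptpre had 7. The fall in counts at a stricter q or a shorter reach follows from the smaller number of peaks used. A gap of 500 bp or an overlap of 50% of the shorter peak moved none of these 4 counts by over 1.5 times. Ptpre had the highest or joint highest R848-only count of the 10 genes in all 9 alternatives. The rank was joint at a −log10 q from 5 upward (2 and 2) and with gene ends within 20 kb (4 and 4). With the nearest transcription start the next gene had 6. The alternatives recount the same peaks and Ptpre was selected on this count, so its rank is a description. Depth limits single peaks: the lowest called summits held 4 and 5 tags.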
